A study of Rattus norvegicus with 9 samples.

Results

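The mitochondrial ribosomal proteins are the nuclear-encoded protein parts of the ribosome that works inside mitochondria. The members described here are all genes for which the array's annotation gives a single symbol of the form Mrpl or Mrps followed by a digit. There are 73 such genes among 14217 with a named probe set, 46 named for the large subunit (Mrpl) and 27 for the small subunit (Mrps). They carry 97 probe sets, and each gene is represented by the probe set with the highest mean log2 signal. Pancreatic islets, small clusters of endocrine cells that release insulin and other hormones, came from male Wistar rats. Their age is given as 7 weeks and their weight as 225 to 250 g, the same for both diets. After 30 days on either diet, in single cages, 4 samples represent the standard diet, with 8% of calories as fat, and 5 the cafeteria diet, with 66%. No other agent or allele is named in the labels, which call the samples independent biological replicates; how many rats gave each sample is not stated. Samples were grouped by title. A separate label for diet contradicts the title in 9 of 9 samples; grouping by that label instead would exchange higher and lower throughout, at the same sizes and p-values.

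The mitochondrial ribosome reads the few messages of mitochondrial DNA, all of them for core subunits of the respiratory chain and ATP synthase. Its RNA is made in the mitochondrion, while all its proteins are encoded in the nucleus, translated in the cytosol and imported. The small subunit holds the messenger and decodes it, and the large subunit joins the amino acids. Some proteins have counterparts in the bacterial ribosome, and others are found only in mitochondrial ribosomes. In beta cells, where oxidation of glucose in mitochondria is coupled to insulin release, the respiratory chain depends on this machinery.

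The upstream stretches of 5 members are shown first. Mrpl33, Mrps6 and Mrpl32 are the members whose cafeteria and standard arrays did not overlap, Mrpl52 is the member with the smallest p among those with a lower signal, and Mrpl46 shares its upstream stretch with Mrps11. Each is the run of 250 bases before the RefSeq gene start, 5′ to 3′ in the direction of the gene, on build GRCr8. Capitals mark matches to short motifs described below.
Mrpl33, chr6:30553988-30554237, minus strand: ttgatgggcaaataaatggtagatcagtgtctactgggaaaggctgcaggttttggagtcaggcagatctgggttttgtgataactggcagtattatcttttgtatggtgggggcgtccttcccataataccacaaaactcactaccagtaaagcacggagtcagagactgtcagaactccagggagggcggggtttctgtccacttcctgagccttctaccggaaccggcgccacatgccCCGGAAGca
Mrps6, chr11:44778417-44778666, plus strand: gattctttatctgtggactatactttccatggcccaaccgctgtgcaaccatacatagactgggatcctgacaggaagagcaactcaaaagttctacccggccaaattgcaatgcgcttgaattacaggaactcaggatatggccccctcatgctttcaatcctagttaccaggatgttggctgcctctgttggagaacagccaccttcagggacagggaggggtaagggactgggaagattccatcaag
Mrpl32, chr17:55260401-55260650, plus strand: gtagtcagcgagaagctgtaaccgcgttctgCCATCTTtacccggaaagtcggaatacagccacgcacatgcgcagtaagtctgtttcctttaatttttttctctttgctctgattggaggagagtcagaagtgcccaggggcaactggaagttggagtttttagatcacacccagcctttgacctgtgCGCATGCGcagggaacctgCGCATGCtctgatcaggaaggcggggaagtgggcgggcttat
Mrpl52, chr15:31852686-31852935, plus strand: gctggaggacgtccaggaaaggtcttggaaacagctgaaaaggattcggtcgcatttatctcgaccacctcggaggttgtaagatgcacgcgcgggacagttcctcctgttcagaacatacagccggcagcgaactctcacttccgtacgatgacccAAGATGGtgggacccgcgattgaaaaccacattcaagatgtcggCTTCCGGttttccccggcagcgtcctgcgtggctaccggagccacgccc
Mrpl46, chr1:142117031-142117280, minus strand: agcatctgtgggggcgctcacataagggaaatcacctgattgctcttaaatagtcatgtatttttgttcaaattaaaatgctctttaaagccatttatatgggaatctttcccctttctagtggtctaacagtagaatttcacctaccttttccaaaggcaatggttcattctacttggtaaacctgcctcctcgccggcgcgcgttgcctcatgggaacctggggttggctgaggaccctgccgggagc

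Motifs of 7 letters were searched on both strands in windows of 300 bases, from 250 before to 50 after the start. They were CCGGAAG, the core bound by ETS factors such as GABP, GCATGCG, a part of the site of NRF1, and AAGATGG, a part of the site of YY1. These factors are known as regulators of nuclear genes for mitochondrial proteins. A window was given for 59 of the 73 members. CCGGAAG stood in 20 of the 59 (33.9%), against 18.9% of the 8648 genes with a window and a probe set tested here and 9.63% of all 27457 genes with one. AAGATGG stood in 15 (25.4%), against 9.09% and 7.77%, and GCATGCG in 6 (10.2%), against 6.73% and 3.70%. Matches overlapped each other in 6 of the member windows, as those of GCATGCG on both strands do for Mrpl32, and a match on the other strand reads as its reverse complement. The windows of members had a median of 18 CpG dinucleotides, those of tested genes 21 and those of all genes 7, so members resembled tested genes more than all genes in this respect. CCGGAAG was found in 13 of 38 large subunit windows and 7 of 21 small subunit windows. In the stretches above, the capitals are CCGGAAG for Mrpl33, and GCATGCG on both strands and AAGATGG on the other strand for Mrpl32. For Mrpl52 they are AAGATGG and, on the other strand, CCGGAAG, which has a further match after the start. For Mrps6 the only match, to AAGATGG, runs across the start, and for Mrpl46 the only one lies after it, so neither stretch has capitals. A match of this kind is a description of letters. Members with CCGGAAG had a median log2 difference between diets of 0.04 (n = 20) and those without 0.07 (n = 39).

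Many members stand head to head with another gene. In 18 of the 59 (30.5%) a gene on the other strand starts within 1000 bases upstream, against 17.1% of tested genes and 11.4% of all genes in the table. In 14 of the 18 the distance is at most 300 bases. Mrpl46, of the large subunit, and Mrps11, of the small subunit, start 234 bases apart, and the stretch shown for Mrpl46 covers the gap. Mrpl32 faces Psma2, a proteasome subunit, at 210.0 bases, and Mrpl47 faces Ndufb5, a complex I subunit, at 244 bases. In RefSeq, the spans of 16 members overlap that of another protein-coding gene, Mrpl47 and Ndufb5 among them. Spans and starts were read from separate lists. How this pair, or Mrpl27 and Eme1, can both stand head to head and overlap was not checked. The log2 difference between diets was 0.00062 for Mrpl46 and 0.03 for Mrps11. With that pair counted once, both genes were tested in 13 pairs, and in 8 of the 13 their log2 differences had the same sign. Ndufb5 was the only neighbour tested with an unadjusted p under 0.05 by limma (log2 difference 0.26, adjusted p = 0.839), and Mrpl47 itself had 0.02.

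Signals on the array are linear, scaled by the authors, and were compared as log2(signal + 16) by limma, a linear model fitted to all probe sets, where a difference above 0 means a higher signal in cafeteria islets. All 73 members passed the filter on dim probe sets, which uses the mean over all arrays, and were among the 18625 probe sets tested. None passed limma's adjusted threshold of 0.05, where the lowest adjusted p of a member was 0.839; 0% of all probe sets tested passed it. At an unadjusted p under 0.05 there were 2 members higher in cafeteria islets, Mrpl3 and Mrps26, or 2 of 73, against 3.01% of all probe sets tested, and 0 lower, against 2.79%. These shares are near the background and are no result about the members. The count of higher members was 7 without standard replicate 1, against 4.30% of all probe sets tested, and 0 without standard replicate 3, against 1.93%. Precision is limited by having only 9 arrays, and in RNA from whole islets a lower signal from fewer cells of a type and one from less RNA per cell cannot be told apart.

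The differences were small and leaned to one side. Of the 73 members, 55 had a higher mean in cafeteria islets, against 48.1% of all probe sets tested and 49.3% of the 13891 with a mean log2 signal at least that of the dimmest member. The median log2 difference was 0.06, against -0.01 for all probe sets tested. Of the members, 59 of 73 lay within 0.2 of 0, as did 12613 of the 18625 probe sets tested. Member differences ran from -0.35 (Mrpl34) to 0.32 (Mrps18c). The standard deviation between arrays within a group had a median of 0.16 over members and 0.26 over all probe sets tested, both in log2 units. The median difference is thus smaller than the usual spread of a single member between arrays. For the mean over all members, the difference was 0.052 and the pooled standard deviation between arrays 0.049. The ranges of that mean overlapped, at 9.89 to 10.04 on standard and 9.95 to 10.04 on cafeteria arrays. The number of members with a higher mean was 45 without standard replicate 4, 48 without cafeteria replicate 1 and 50 without cafeteria replicate 5. In the plot of all members, 26 of 73 points lie farther than 1 standard error from 0, on both sides. Among all 18625 probe sets tested, 7010 did, a similar share.

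**Figure D1:**
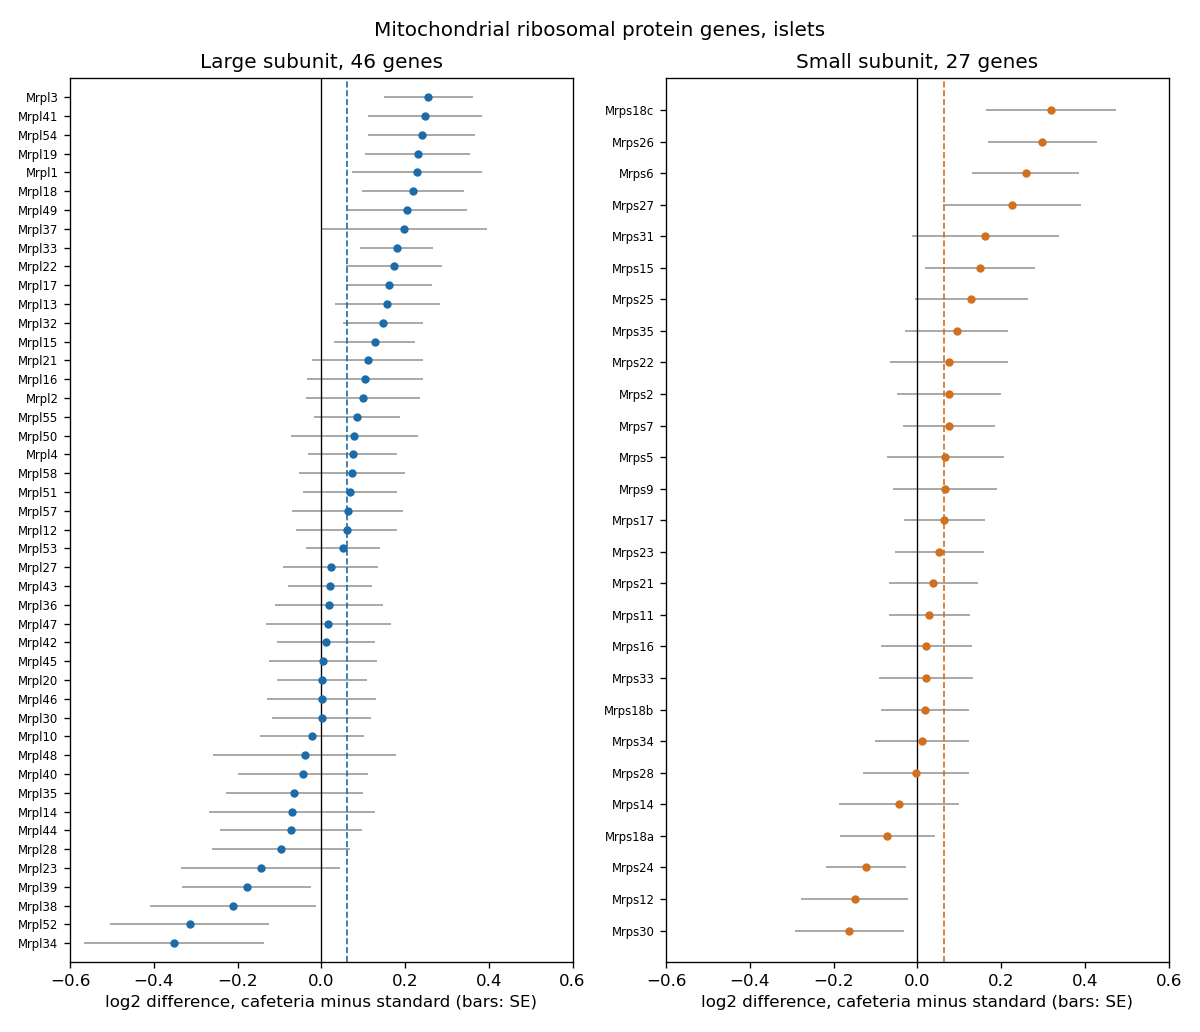
Log2 difference between cafeteria and standard islets (x axis) for each of 46 large subunit and 27 small subunit genes (y axis, ordered by value). Points are differences of group means, bars the limma standard error, dashed lines the median of each subunit (0.06 in both); 34 large and 21 small subunit genes lie above 0.

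The large and small subunits did not stand apart from each other. Large subunit members had a median log2 difference of 0.06 with 34 of 46 higher, and small subunit members 0.06 with 21 of 27 higher. The mean log2 signal of the large subunit members was 10.01 ± 0.08 (SD, n = 4) on standard arrays and 10.06 ± 0.04 (SD, n = 5) on cafeteria arrays. For the small subunit members it was 9.86 ± 0.04 and 9.93 ± 0.05. Large minus small was 0.21, 0.16, 0.13 and 0.09 on standard replicates 1 to 4, and 0.16, 0.08, 0.14, 0.11 and 0.17 on cafeteria replicates 1 to 5. The ranges overlap almost fully, and the group means of this quantity, 0.15 and 0.13, differ by less than its standard deviation between arrays (0.04).

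**Figure D2:**
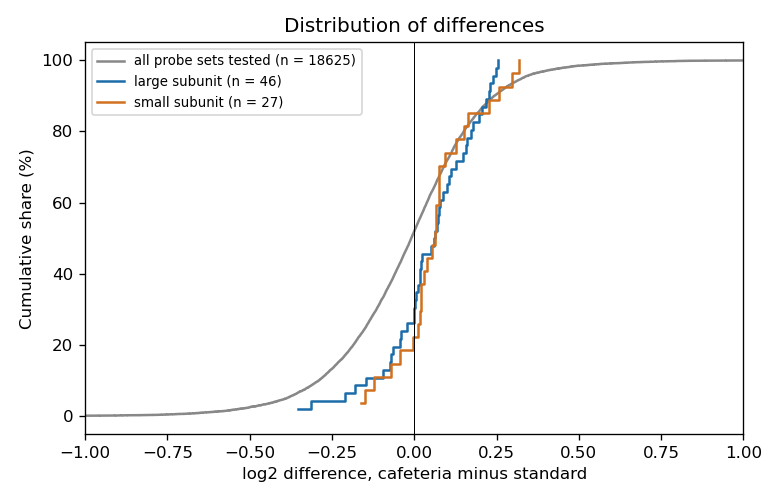
Cumulative share in percent (y axis) of log2 differences between cafeteria and standard islets (x axis) for all 18625 probe sets tested and for the members of each subunit. Both member curves cross 0 lower than the grey one: 55 of 73 members lie above 0, against 48.1% of all probe sets.

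The arrays themselves varied in the level of the whole family. Against the mean of the 9 arrays, the large subunit members lay at 0.08, -0.01, -0.10 and -0.07 on standard replicates 1 to 4, and at 0.05, 0.03, -0.04, 0.02 and 0.05 on cafeteria replicates 1 to 5. The small subunit members lay at 0.01, -0.04, -0.09 and -0.02, and at 0.03, 0.09, -0.04, 0.04 and 0.02. Standard replicate 1 had the highest large subunit level of all arrays, and cafeteria replicate 3 lay below the mean in both subunits. Standard replicate 3 held the lowest signal of the 9 arrays for 18 of 73 members (24.7%), against 10.9% of all probe sets tested, and the highest for 1 member. The summed signal of macrophage markers was also highest on that array, at 14573 against 4611 to 8762 on the others. So was that of lymphocyte markers, at 2385 against 420.3 to 763, while that of endocrine markers was the lowest, at 171354. Their part in the members' values was not tested. Cafeteria replicate 3 held the lowest signal for 21 members (28.8%) and the highest for 15 (20.5%), against 18.5% and 17.1% of all probe sets tested, so it lay at both ends. That array also had the highest ratio of 3′ to 5′ beta-actin signal, a sign of RNA or labelling quality, at 5.63; the others lay between 2.79 and 4.84. The part of that ratio in the members' values was not tested.

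**Figure D3:**
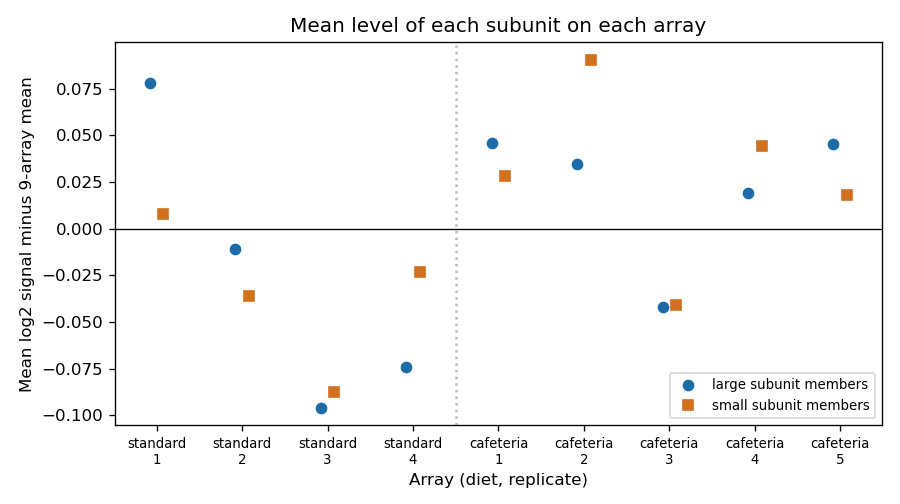
Mean log2 signal of the large (circles) and small (squares) subunit members on each of the 9 arrays (x axis), as the deviation from the mean over the arrays (y axis). Standard replicate 3 is lowest in both subunits (-0.10 and -0.09), and standard replicate 1 and cafeteria replicate 3 lie on the other group's side of 0.

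Among members with a bacterial counterpart in the large subunit, 21 of 27 had a higher mean in cafeteria islets, with a median log2 difference of 0.09 and a range from -0.35 to 0.26. Mrpl33, a small protein of the large subunit, had signals of 3152, 2881, 2749.9 and 2966 on the standard arrays and 3278, 3177, 3514, 3242 and 3430.2 on the cafeteria arrays. Every cafeteria array lay above every standard one, although the lowest cafeteria signal exceeded the highest standard signal only narrowly. The log2 difference was 0.18 ± 0.09 (SE), with an exact two-sided permutation p of 0.0079, the smallest the 126 splits allow, and an adjusted p of 0.839 by limma.

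Mrpl32, whose trimming by an inner-membrane protease is a step of large subunit assembly, had 1141, 1182, 1149.8 and 1206 on standard arrays. Its cafeteria signals were 1322, 1221, 1259, 1400.0 and 1293. The groups again did not overlap; the log2 difference was 0.15 ± 0.10, the exact permutation p 0.0159 and limma's adjusted p 0.859. This gene was named after its values were seen.

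Mrpl3, a protein near the centre where peptide bonds are made, had the smallest unadjusted p of all members by limma, with an adjusted p of 0.839. Its signals were 1122, 1167, 1079 and 1191 on standard arrays and 1485, 1349, 1398, 1444 and 1164 on cafeteria arrays. All but cafeteria replicate 5 lay above the standard range, and the log2 difference was 0.26 ± 0.11 with an exact permutation p of 0.0317. Mrpl12, a stalk protein that also binds the mitochondrial RNA polymerase, had 1605 ± 229 (SD, n = 4) and 1669 ± 180 (SD, n = 5). Its log2 difference of 0.06 ± 0.12 turned to -0.0037 without cafeteria replicate 5 and to -0.0023 without standard replicate 4.

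Mrpl34, a very short protein with a bacterial counterpart, had the lowest log2 difference of all members, -0.35 ± 0.22. Its signals were 569.8, 867, 826 and 599 on standard arrays and 767, 662, 342, 572 and 494 on cafeteria arrays. The groups overlapped widely, the exact permutation p was 0.230 and limma's adjusted p 0.859. Without cafeteria replicate 3 the difference was -0.19.

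Among large subunit proteins specific to mitochondria, 13 of 19 had a higher mean in cafeteria islets, with a median of 0.02 and a range from -0.31 to 0.25. Mrpl54 had 1792, 2145, 2169.8 and 1711 on standard arrays and 2425, 2289.8, 1916, 2116 and 2845 on cafeteria arrays. Of the cafeteria arrays 3 lay above the standard range, and the log2 difference was 0.24 ± 0.13 (exact permutation p = 0.127, limma adjusted p = 0.849). Mrpl52 had 851, 1620.2, 924 and 1008 on standard arrays and 1040.5, 835, 679, 1017 and 753 on cafeteria arrays. Standard replicate 2 stood high; the log2 difference of -0.31 ± 0.19 was -0.11 without that array (limma adjusted p = 0.859 with all arrays). Mrpl39 had a log2 difference of -0.18 ± 0.15, and -0.12 without standard replicates 1 or 2 or cafeteria replicate 4 in turn. Mrpl58, a peptidyl-tRNA hydrolase built into the ribosome that frees stalled chains, had 578 ± 57.1 and 609 ± 62.0, a log2 difference of 0.07 ± 0.13 and 0.037 without cafeteria replicate 3.

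Of the small subunit proteins with a bacterial counterpart, 11 of 15 had a higher mean, with a median of 0.06 and a range from -0.15 to 0.32. Mrps6 had 383, 387, 318 and 359 on standard arrays and 477, 401, 426, 438 and 433 on cafeteria arrays. It was the only small subunit member whose groups did not overlap, with a log2 difference of 0.26 ± 0.13, an exact permutation p of 0.0079 and a limma adjusted p of 0.839. In the RefSeq table its span overlaps that of Slc5a3, a myo-inositol transporter, and whether the probe set tells the transcripts of both genes apart was not checked.

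Mrps18c had the highest log2 difference of all members, 0.32 ± 0.15. Its signals were 324, 296, 338 and 369.6 on standard arrays and 332, 392, 519, 391 and 475 on cafeteria arrays. Of the cafeteria arrays 4 lay above the standard range (exact permutation p = 0.0476, limma adjusted p = 0.839). A second tested probe set of this gene had the opposite sign, -0.13 ± 0.17, with 344 ± 38.1 and 317 ± 69.4, so the direction for Mrps18c depends on the probe set. Its relatives Mrps18a and Mrps18b, which descend from the same bacterial protein, had -0.07 ± 0.11 and 0.02 ± 0.11. Mrps18b counts as specific to mitochondria in the ribosome's nomenclature. These paralogs showed no common direction: leaving out single arrays turned the sign of Mrps18a without cafeteria replicate 3 (0.0050) and that of Mrps18b in 4 cases.

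Mrps24, where the messenger enters the small subunit, and Mrps12, at the decoding site, had log2 differences of -0.12 ± 0.10 and -0.15 ± 0.13. For Mrps24 the signals were 1596, 1460.3, 1597 and 1593 against 1488, 1433, 1337, 1544 and 1364, and only standard replicate 2 reached into the cafeteria range (exact permutation p = 0.0556, limma adjusted p = 0.867). For Mrps12 they were 1174, 1119, 930.1 and 1096 against 905, 1052, 791, 1003 and 1124, with broad overlap (exact permutation p = 0.238, limma adjusted p = 0.871), and the difference was -0.079 without cafeteria replicate 3.

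All 10 small subunit proteins specific to mitochondria had a higher mean in cafeteria islets. Their median log2 difference was 0.08, with values from 0.01 (Mrps34) to 0.30 (Mrps26). Of the 10, 5 kept that sign in all 19 alternatives of scaling, model, filter and arrays, though some, such as a changed filter, cannot move a difference. Mrps18b, Mrps22, Mrps23, Mrps33 and Mrps34 turned below 0 in at least 1, the lowest value being -0.081, for Mrps22. Mrps26 had 1204, 914, 929 and 931 on standard arrays and 1133, 1219, 1508, 1079 and 1191 on cafeteria arrays. Only standard replicate 1 fell within the cafeteria range, and the log2 difference was 0.30 ± 0.13 (exact permutation p = 0.0635, limma p = 0.0390 and adjusted p = 0.839). Mrps30 and Mrps18a carry small subunit names but lie in the large subunit in solved structures; both had a negative difference. Mrps30 had 878, 921, 998 and 1028 against 874, 1050.2, 696, 890.5 and 782, a log2 difference of -0.16 ± 0.13 and -0.092 without cafeteria replicate 3. With both counted in the large subunit the medians were 0.06 and 0.07.

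**Figure D4:**
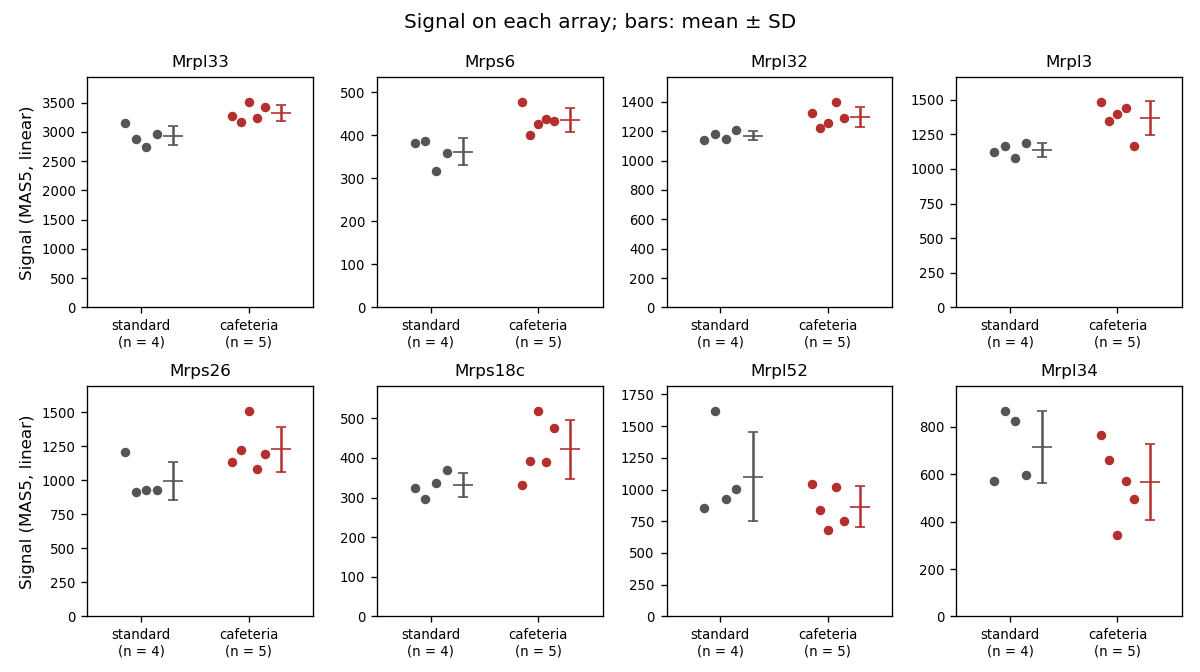
Linear signal on each array (y axis, from 0) for 8 members, 4 standard (grey) and 5 cafeteria (red) arrays, with mean ± SD beside the points. Mrpl33, Mrps6 and Mrpl32 show no overlap between groups, while Mrpl52 and Mrpl34 overlap widely.

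Of the members, 3 had groups that did not overlap, all higher in cafeteria islets, against 0.999% of all probe sets tested, and 0 were lower without overlap, against 0.762%. The number of higher members without overlap was 8 without standard replicate 1, where 3.17% of all probe sets tested were higher without overlap. It was 5 without cafeteria replicate 1, against 2.76%, and 1, Mrpl33, with each array centred on its median, against 1.61%. Of the 6 named lower members, 5 had their lowest signal on cafeteria replicate 3, and of the 6 named higher ones, 3 had their highest there. The 6 in each direction were picked by p from these same values, which favours extremes on cafeteria arrays. That array held the lowest signal for 28.8% of the 73 members and the highest for 20.5%. Over all probe sets tested the shares were 18.5% and 17.1%. The counts are thus no result about the members.

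Different probe sets of a gene did not always go the same way. Of the 18 members with several probe sets, 15 had more than 1 tested, and in 7 of these the tested ones differed in sign. For Mrpl51 all 4 were positive, from 0.07 ± 0.11 for the one used to 0.47 ± 0.18. For Mrpl50 the second probe set had 0.35 ± 0.15 against 0.08 ± 0.15, and for Mrpl52 0.08 ± 0.17 against -0.31 ± 0.19. None passed limma's adjusted threshold. RefSeq lists 44 related loci named after Mrpl or Mrps genes, 40 of them pseudogenes, for 22 of the 73 members, and whether the probes tell them apart was not checked.

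**Figure D5:**
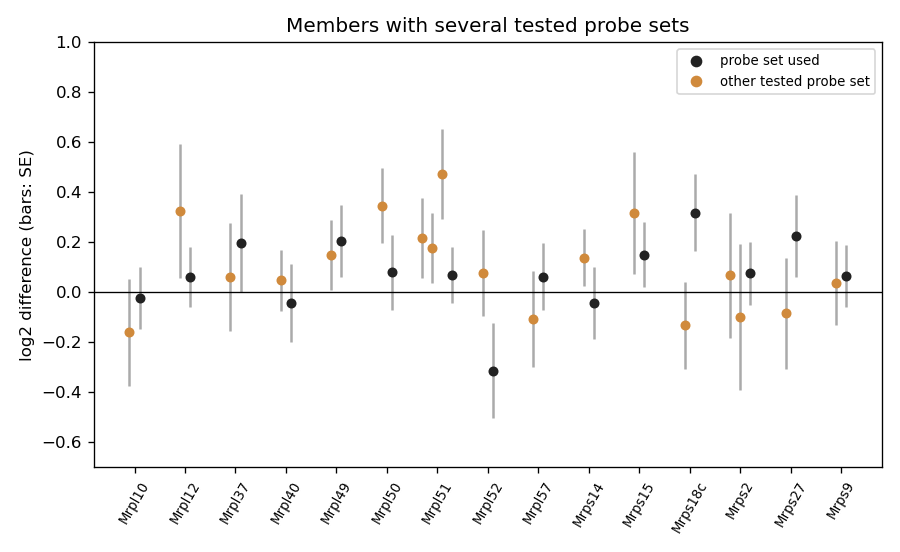
Log2 difference between cafeteria and standard islets (y axis, bars: SE) for each tested probe set of the 15 members with more than 1 tested (x axis); black marks the probe set used. In 7 genes the points lie on both sides of 0, Mrpl52 and Mrps18c among them.

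The platform annotation spells mrpl9, mrpl11 and mrpl24 in lower case, so the rule leaves them out; their log2 differences were -0.08, 0.01 and 0.11. With them 57 of 76 were higher. Mrps36, now named Kgd4 and a part of a citric acid cycle complex, is listed under the newer name and had 0.09 ± 0.10.

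Other genes of mitochondrial translation were taken from lists, and none of their genes passed limma's adjusted threshold. Ribosomal proteins under other names had 2 of 5 higher and a median log2 difference of -0.07. Aurkaip1, of the small subunit, had 1655, 1383, 1323 and 1353 against 1447, 1837, 1850.2, 1776 and 2009.9, a log2 difference of 0.31 ± 0.12 (exact permutation p = 0.0397, limma adjusted p = 0.839). Dap3, a GTP-binding protein of the small subunit, had 1201 ± 136 and 1031 ± 77.9, a log2 difference of -0.21 ± 0.11.

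Of the assembly factors, 20 of 26 were higher, with a median of 0.07, and 24 were tested. Of those tested, 2 were higher without overlap between groups, against 0.999% of all probe sets tested. They were Mterf4, which guides an rRNA methyltransferase, and that methyltransferase, Nsun4. Mterf4 had 555, 465, 521 and 585 against 590.4, 686, 654, 617 and 646, a log2 difference of 0.26 ± 0.12 (exact permutation p = 0.0079, limma adjusted p = 0.839). Nsun4, named after its values were seen, had 0.19 ± 0.12 (limma adjusted p = 0.859). Mterf3, which acts in ribosome assembly, had 0.26 ± 0.14. Of the translation factors, 12 of 15 had a higher mean (median 0.08); Tufm, the elongation factor Tu, had 0.22 ± 0.11, and Slirp, an RNA-binding protein that keeps mitochondrial messages stable, had 0.20 ± 0.12.

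Mitochondrial tRNA synthetases and related genes were split 9 to 9, with a median of 0.00. Vars2, for valine, had 287, 292, 281 and 261 against 278, 215, 172, 203 and 122, a log2 difference of -0.51 ± 0.21 (exact permutation p = 0.0317, limma adjusted p = 0.839), and Rars2, for arginine, had 0.31 ± 0.17 and 0.15 without standard replicate 2. Genes of mitochondrial DNA maintenance and transcription had 6 of 13 higher, with Tfb2m at 0.21 ± 0.17 (0.088 without standard replicate 2) and the RNA polymerase Polrmt at 0.18 ± 0.17 (0.079 without standard replicate 1). Of the nuclear regulators 5 of 10 were higher. Pprc1, a coactivator of the same family as Ppargc1a, had 561, 420.0, 437 and 459 against 536, 608, 666, 554 and 570.3, a log2 difference of 0.32 ± 0.13 (exact permutation p = 0.0238, limma adjusted p = 0.839). Ppargc1a had 155, 181, 185 and 196 against 152, 231, 267, 382 and 333, a log2 difference of 0.51 ± 0.23. No probe set was named here for the 13 genes of mitochondrial DNA.

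All 6 islet endocrine markers were present, the dimmest, Ins2, with a mean signal of 25633, and their summed signal was 171354 to 250625 on standard and 174691 to 263660.1 on cafeteria arrays. Each array's trimmed mean was 500, and whether signals as bright as these still follow the amount of RNA was not tested. Markers of other cells differed in mean between the groups, and none of those tested passed limma's adjusted threshold. All 10 macrophage markers had a lower mean in cafeteria islets (median log2 difference -0.60), and their summed signals, 8167 to 14573 and 4611 to 7931, did not overlap. The differences were uneven, from -0.95 for Cd74, the brightest marker in the sum, to -0.004 for Cd68. Acinar markers were higher in 11 of 12 cases (median 0.46), with overlapping sums of 3836 to 9724 and 2957 to 10559.9. The 4 lymphocyte markers named on the array were all lower in mean, and their summed signals, 579.37 to 2385 on standard and 420.35 to 579.31 on cafeteria arrays, did not overlap, the ranges all but touching. The 5 endothelial markers were lower in mean too, with overlapping sums of 6497 to 7463 and 5798 to 6563, and fibroblast and duct markers were lower in 3 of 5 and 3 of 4. No marker's mean signal was at 0; the dimmest was Cftr, of duct cells, at 60.2. The part of these cells in the members' values was not tested.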

How the data were processed

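RNA from islets was hybridised to Affymetrix rat expression arrays, 1 per sample. The authors deposited linear intensity signals; the submitters' processing notes name MAS5. As measured on the files, each array's trimmed mean, leaving out 2% at each end, was 500. Of 31099 probe sets, 57 controls were left out. The platform annotation gave 1 gene symbol for 20826 probe sets, several for 436 and none for 9780; all 73 member symbols equal the current RefSeq ones. Signals were taken as log2(signal + 16). Probe sets under the 40th percentile of the mean over all arrays (a signal of about 91.1) were left out. The other 18625 were tested with limma 3.58.1 (R 4.3.3, eBayes with an intensity trend, Benjamini-Hochberg adjustment). The fit was tried on simulated data with differences larger than that of any member, so the trial does not cover differences of the members' size. Exact two-sided permutation tests used all 126 splits of the 9 arrays for single genes, unadjusted. The design text names 1 more standard sample, not analysed here. P-values set a difference against the spread between these samples. As the number of rats per sample is not stated, that need not be the spread between rats.

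Named members are the 6 with the smallest p in each direction, plus Mrpl12, Mrps12, the 3 Mrps18 paralogs, Mrps30, Mrpl58 and Mrps36; lists give up to 2 genes with the smallest p. Members and lists were chosen with earlier results of these data known. Promoter windows are those of RefSeq on GRCr8. Alternatives varied pseudocount, scaling, filter, variance model, replicate block, probe set and arrays.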

Additional observations from a re-analysis of the deposited data

Results flagged for a closer look

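Single arrays stood away from the rest of their group for 4 of the genes named, out of 64 groups of 4 or 5 arrays examined; chance alone marks about 1 in 20. For Mrps26 standard replicate 1 had a signal of 1203.6, with the nearest standard array at 931. For Mrps24 standard replicate 2 had 1460.3, with the nearest at 1593. For Mrpl12 cafeteria replicate 5 had 1987.9, with the nearest at 1625. For Tufm, the mitochondrial elongation factor, cafeteria replicate 2 had 1395.3, with the nearest at 1641.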

How the results depend on the processing

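No member passed limma's adjusted threshold under any alternative; the lowest adjusted p of a member was 0.435, with array weights. The number of members higher at an unadjusted p under 0.05 was 2, and became 4 with quantile normalisation, 5 with arrays centred on the median, 1 with the replicate number as a block, 8 with array weights, 4 over all probe sets of the members, and 0 to 7 when single arrays were left out. Probe sets higher at that p made up 5.04% of all tested with array weights, 4.36% with centred arrays, 3.46% with quantile normalisation and 1.47% with the block. The number lower was 0, and 0 to 1 without single arrays. With 3 arrays left out at once (standard replicate 1, standard replicate 3 and cafeteria replicate 3), an alternative chosen after seeing the data, there were 1 lower member and 13 members without overlap between groups, all higher, against 6.53% of all probe sets tested; fewer arrays make such separation more frequent. The number without overlap was 3, 1 with centred arrays and 3 to 8 without single arrays. Among all probe sets, 0 passed the adjusted threshold, and 0 to 2 without single arrays (2 without standard replicate 2); 1080 had an unadjusted p under 0.05, and 582 with the block. Over all probe sets of the members, 71 of 97 were higher.

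The median log2 difference stayed above 0 in both subunits in all alternatives. It ran from 0.033 to 0.106 for the large and 0.027 to 0.071 for the small subunit without single arrays. With arrays centred on the median it was 0.102 and 0.105. That scaling also moved the median of all probe sets tested upward, from -0.009 to 0.032. The sign held in all 19 alternatives other than probe set choice for 41 of 73 members, 34 higher and 7 lower. Changes of filter or intensity trend cannot move a difference, so the sign was fixed in advance there. The replicate block gave the same differences as leaving out cafeteria replicate 5, so the 19 are not independent checks. The share of all probe sets that kept their sign was not counted. Of the 41, Mrpl52, Mrps18c, Mrps2 and Mrps27 have another tested probe set of the opposite sign. Among the named genes the sign turned for Mrpl12 with the replicate block (-0.0037) and between -0.0037 and 0.147 without single arrays, for Mrps18a (-0.113 to 0.0050) and for Mrps18b (-0.011 to 0.064). The causes were not tested. Samples with the same replicate number did not deviate together (correlations -0.38, -0.05, -0.12 and 0.03). With so few arrays, and deviations taken from group means, these values cannot exclude that the number marks a pairing. All members passed the filter on dim probe sets, which is a cut by rank and no measure of signal over background. With 4 and 5 arrays, differences of the size seen here are mostly within their error.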
